A study of Mus musculus with 2 samples.

Results

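The subunits of the oxidative phosphorylation complexes were described in total RNA from mouse cerebral cortex. They were taken as the genes with a protein-coding transcript whose symbol begins with the names used for complex I (Nduf), complex II (Sdha to Sdhd), complex III (Uqcr and Cyc1), complex IV (Cox4 to Cox8) and complex V (Atp5), plus the mitochondrially encoded mt-Nd, mt-Cytb, mt-Co and mt-Atp genes. This gave 100 of 55536 genes, of which 13 lie in the mitochondrial genome and 87 in the nucleus. The rule reads symbols and transcript types and no measured value. The nuclear genes were 76 constitutive subunits, 7 isoforms of complex IV known from muscle, testis or other tissues, 3 associated proteins, and a second gene model of Atp5o with a count of 0 in both mice.

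The series held male B6CASTF1/J (B6Cast F1) hybrids, 2 animals aged 36 days, with 1 library each from the left cerebral cortex, made from 300 ng of total RNA with ERCC spike-in RNAs. No treatment is named, and the animals formed 1 group, numbered as biological replicates 2 and 1, and the labels gave both the same donor identifier. They come from a cross of distant strains, and the files do not separate the parental alleles. Total expected counts were 27988085 in replicate 2 and 29915463 in replicate 1. The design holds no comparison between conditions, and the smallest p that 2 animals allow in an exact permutation test is 0.5, so values are given with their spread and without p. All 6 neuronal markers and all 4 astrocyte markers examined were expressed, led by Snap25 at a TPM (transcript abundance scaled by effective length and library total) of 1223 in replicate 2 and 1277 in replicate 1. Of 5 muscle markers 4 reached a TPM of 1, led by Myh7 at 8.89 in replicate 2 and 8.51 in replicate 1, and Ckm was at 0.18 and 0.04. In bulk tissue, fewer cells of a type and less RNA per cell cannot be told apart.

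Oxidative phosphorylation couples the transfer of electrons along the inner mitochondrial membrane to the making of ATP. Complexes I and II feed electrons from NADH and succinate to ubiquinone, complex III passes them to cytochrome c, and complex IV passes them to oxygen. The protons pumped by complexes I, III and IV return through complex V, the ATP synthase. Each of these except complex II mixes subunits made inside mitochondria with subunits made in the cytosol and imported, so the assembly draws on both genomes. Neurons depend on this pathway for most of the ATP that drives ion pumping and synaptic transmission.

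Of the 100 genes, 94 had a TPM of 1 or more in each animal, against 58.8% of 21901 protein-coding genes. All 76 constitutive nuclear subunits and all 13 mitochondrial genes did so. The 6 below that level in at least 1 mouse were 4 of the 7 tissue isoforms (Cox4i2, Cox7b2, Cox8b and Cox8c), the associated Ndufa4l2, and the second model of Atp5o. The median constitutive nuclear subunit stood at a TPM of 102 in replicate 2 and 110 in replicate 1, against 16.5 and 15.6 for the 12869 expressed protein-coding genes in the same order of mice. In each mouse 75 of the 76 were above that median of expressed genes, the exception being Atp5g2. Across all protein-coding genes 853 had a higher mean TPM than the median nuclear subunit. Nuclear members held 2.33% of the summed TPM of nuclear protein-coding genes in replicate 2 and 2.53% in replicate 1.

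Nuclear subunits lay close together. In replicate 2, 61 of the 76 had a TPM between 50 and 200, with 4 below and 11 above. In replicate 1 there were 60 between these values, 4 below and 12 above. The order of the 76 was nearly the same in the mice, with a Spearman correlation of 0.98 across genes, which share libraries and are not independent.

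Mitochondrial subunits were far more abundant than nuclear ones. Their median TPM was 2141 in replicate 2 and 2252 in replicate 1, against the nuclear medians of 102 and 110 in the same mice. On the log2(TPM + 1) scale the difference was 4.36 ± 0.02 (SD, n = 2), or 20.5-fold. In each mouse 11 of the 13 stood above every nuclear subunit, the exceptions being mt-Co2 and mt-Nd6. The gap was 4.34 ± 0.01 within complex I and 4.54 ± 0.10 within complex III. It was 2.79 ± 0.64 within complex IV and 4.00 ± 0.0049 within complex V, which hold the mitochondrial genes with abundant nuclear copies. With those copies added it was 4.81 ± 0.01 within complex IV and 4.72 ± 0.12 within complex V.

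**Figure D1:**
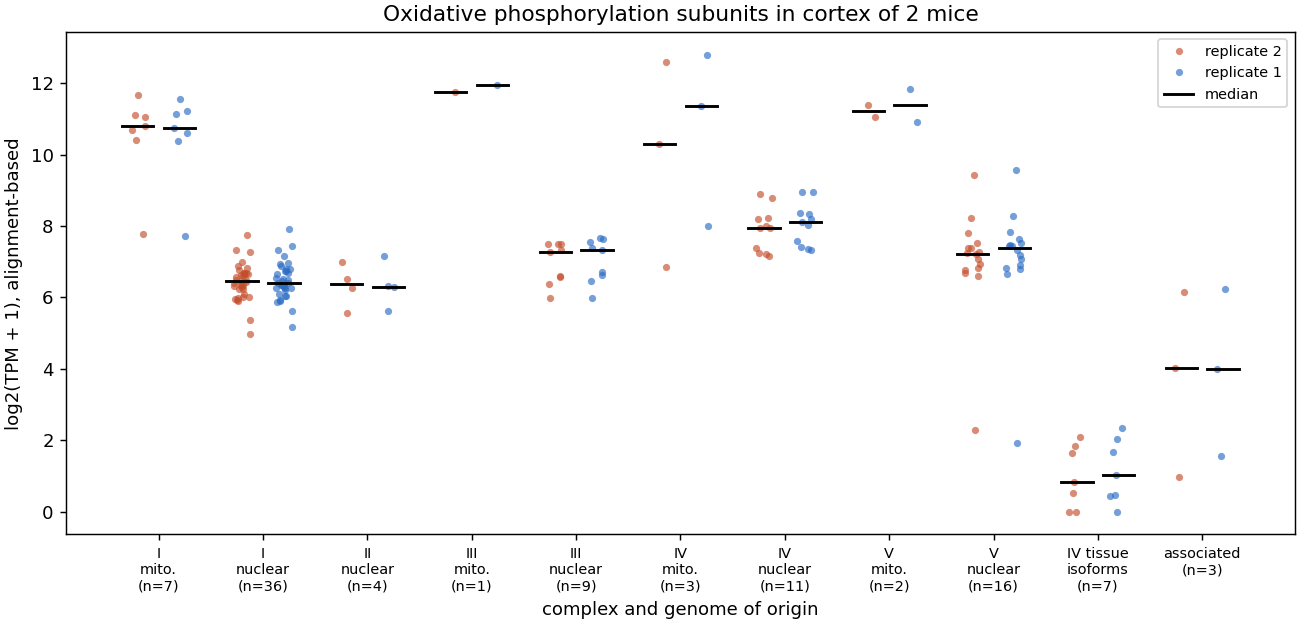
Level of each subunit as log2(TPM + 1) (vertical axis) by complex and genome of origin (horizontal axis), with 1 point per gene, replicate 2 left of replicate 1 and black bars for medians. By their medians, mitochondrial groups sit above the nuclear group of the same complex, nuclear complex IV is the highest of the nuclear groups, and the tissue isoforms lie lowest. Single genes depart from this, such as mt-Co2, which lies below the nuclear subunits of complex IV in replicate 2.

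For 4 of the 13 mitochondrial genes, a large part of the reads was listed under nuclear copies. These copies are annotated as unprocessed pseudogenes and lie side by side on chromosome 1 between 24613189 and 24616197 (mm10). Gm28661 is identical to mt-Co2 over 681 nucleotides, and Gm29216 differs from mt-Co1 at 6 of 492 nucleotides, all of them in the window shown. The windows below show the start of mt-Co2 and of its copy, which are letter for letter the same. They also show the start of the overlap of mt-Co1 with its copy, which holds their differences, in capitals. The mt-Co2 window is chrM:7013-7072 and the Gm28661 window chr1:24615506-24615565 on the minus strand. The mt-Co1 window is chrM:6381-6440 and the Gm29216 window chr1:24616138-24616197 on the minus strand.
mt-Co2: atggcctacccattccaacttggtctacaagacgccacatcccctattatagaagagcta
Gm28661: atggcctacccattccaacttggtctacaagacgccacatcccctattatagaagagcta
mt-Co1: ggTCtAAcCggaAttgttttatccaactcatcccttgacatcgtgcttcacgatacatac
Gm29216: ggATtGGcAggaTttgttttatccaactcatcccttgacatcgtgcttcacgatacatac

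The gene mt-Co2, which encodes the subunit that receives electrons from cytochrome c, had an expected count of 1221 in replicate 2 and 2955 in replicate 1. Its copy Gm28661 had 77735 and 99876 in the same mice, so 98.5% and 97.1% of the summed count stood under copies. The TPM of mt-Co2 was 114 in replicate 2 and 257 in replicate 1 from its own row, against 7344 and 8933 after its copies were added at the length of mt-Co2. Both own-row values lay below the authors' deposited intervals for that gene, 562 to 1514 in replicate 2 and 821 to 1856 in replicate 1.

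The same held in smaller measure for 3 neighbours. Reads of mt-Co3, another core subunit of the oxidase, were 80.2% under copies in replicate 2 and 65.9% in replicate 1, and its TPM was 6352 and 7698 with copies. Reads of mt-Atp6, the proton channel subunit of the ATP synthase, were 70.7% and 61.9% under copies, and its TPM was 9119 and 9618 with copies. For mt-Co1, the catalytic subunit of the oxidase, 10.3% and 10.9% stood under copies, and its TPM was 6942 and 7967 with copies. The origin of these reads was not tested. With copies the 3 oxidase genes lay between 7025 and 8139 in mean TPM, a 1.16-fold range, against a 36.0-fold range from their own rows.

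The other 9 mitochondrial genes had under 5% of their summed count under copies. They divided into a heavy-strand set and mt-Nd6, the 1 protein-coding gene of the light strand. The gene mt-Nd6 had a TPM of 218 in replicate 2 and 212 in replicate 1, the lowest of the 13 once copies were added. The median of the 12 heavy-strand genes with copies was 2751 in replicate 2 and 2723 in replicate 1.

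Among the complex I genes of the heavy strand, mt-Nd1 stood at 3295 in replicate 2 and 3052 in replicate 1, and mt-Nd5 at 1361 and 1323. The gene mt-Nd2 was at 1774 and 1568, mt-Nd3 at 1651 and 1709, mt-Nd4 at 2141 and 2394, and mt-Nd4l at 2207 and 2252. All 6 encode core subunits of the membrane arm, and mt-Nd1 was the highest and mt-Nd5 the lowest of them in both mice. The gene of cytochrome b, mt-Cytb, the mitochondrial subunit of complex III, was at 3438 in replicate 2 and 3946 in replicate 1. The small gene mt-Atp8, which overlaps mt-Atp6, was at 2150 and 1947.

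With copies, the 3 oxidase genes and mt-Atp6 were the 4 highest, and the next below them in both mice was mt-Cytb. In the deposited read-based table, mt-Co1 was the highest of the 13, at 10031 in replicate 2 and 11528 in replicate 1, but mt-Co2 was at 1430 and 1661, and its copy Gm28661 at 11371 and 14210. That table listed mt-Atp8 at 0 in both mice, mt-Nd4l at 28.6 in replicate 2 and 17.8 in replicate 1, and mt-Nd3 at 2036 and 706. The levels of these overlapping or short genes thus depend on the method.

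**Figure D2:**
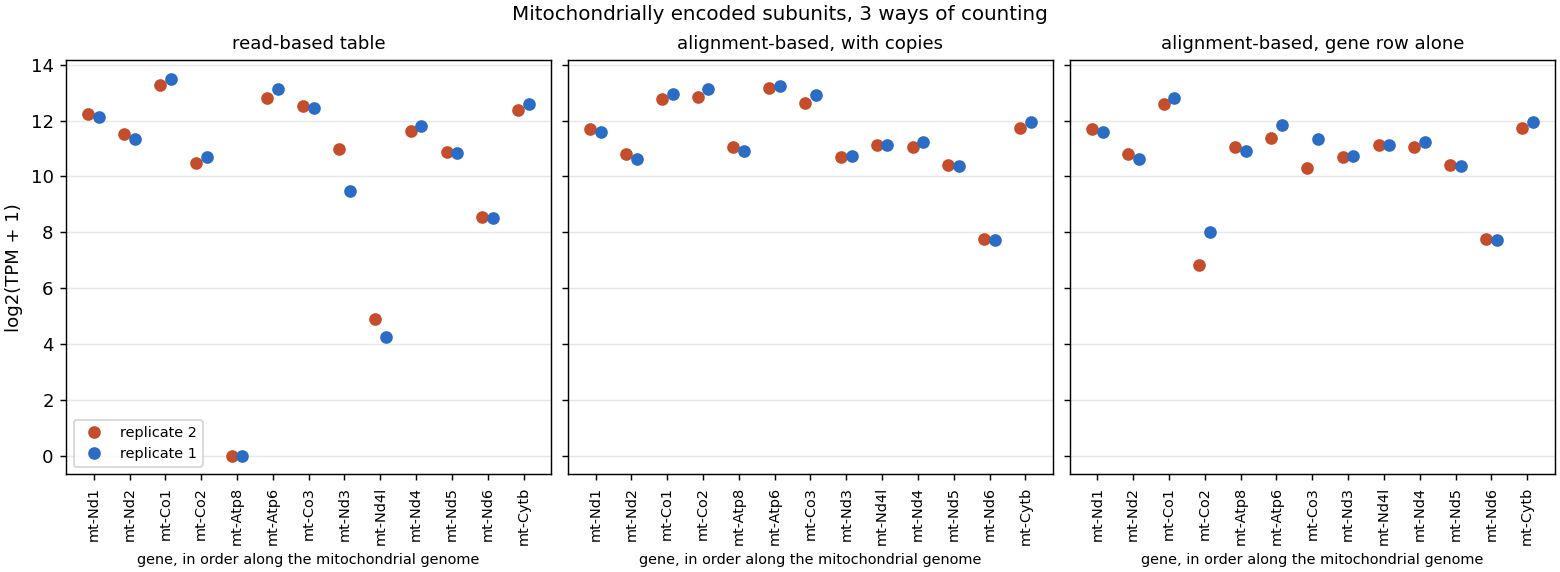
Level of the 13 mitochondrially encoded genes as log2(TPM + 1) (vertical axis), in their order along the mitochondrial genome (horizontal axis), in the read-based table, in the alignment-based table with copies added, and from the gene row alone, with replicate 2 left of replicate 1. The row of mt-Co2 is the lowest of the 13 for replicate 2 in the right panel and among the highest in the middle one, and mt-Atp8 is at 0 in the left panel.

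Complex I, NADH:ubiquinone oxidoreductase, has 36 constitutive nuclear subunits among the members. Their median TPM was 86.4 in replicate 2 and 84.0 in replicate 1, which placed the complex 0.31 ± 0.10 (SD, n = 2) below the median of all nuclear subunits on the log2(TPM + 1) scale. The highest was Ndufa3, an accessory membrane-arm subunit on chromosome 7 (3617373 to 3620327), at 213 in replicate 2 and 243 in replicate 1. In the read-based table Ndufa3 was at 126 and 137, so its first place depends on the method. The lowest was Ndufb4 on chromosome 16 (37647170 to 37654453), at 30.4 in replicate 2 and 35.0 in replicate 1.

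The level of Ndufb4 shared reads with a processed pseudogene. Ndufb4c on chromosome 15 is identical over 390 nucleotides and had counts of 498 in replicate 2 and 482 in replicate 1, against 344 and 345 for Ndufb4 itself. With the copy, Ndufb4 came to a TPM of 74.4 and 83.9, and Ndufb3, at 40.5 and 48.5, became the lowest subunit of the complex. The origin of these reads was not tested. In the read-based table Ndufb4 was at 165 in replicate 2 and 153 in replicate 1. The lowest mean there was that of Ndufs8, at 82.5, against 91.8 for Ndufb3, so this rank depends on the method.

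The 7 nuclear core subunits carry the flavin and the iron-sulphur clusters that pass electrons to ubiquinone. They had a median of 98.9 in replicate 2 and 106 in replicate 1, against 85.1 and 83.7 for the 29 accessory subunits. The core median was higher by 0.27 ± 0.08 on the log2(TPM + 1) scale in the alignment-based table. In the read-based table it was lower by 0.054 ± 0.099, so the direction depends on the table. Ndufs3, Ndufv2 and Ndufv1 had mean TPMs of 105, 105 and 103, and Ndufv1 binds the flavin that takes electrons from NADH. Ndufs7 averaged 80.6 and Ndufs1, the largest of the core subunits, 65.9. Ndufs8 was lowest at 60.5 in replicate 2 and 57.6 in replicate 1.

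Complex II, succinate dehydrogenase, is wholly nuclear and also belongs to the citric acid cycle. Its 4 genes had a median TPM of 82.9 in replicate 2 and 78.2 in replicate 1, 0.40 ± 0.13 below the median of all nuclear subunits. Sdha, the flavoprotein that oxidises succinate (chromosome 13, 74322254 to 74350280), was highest at 127 in replicate 2 and 142 in replicate 1. The iron-sulphur subunit Sdhb averaged 76.1 ± 0.82 and the membrane anchor Sdhc 85.0 ± 7.48. The other anchor, Sdhd, was lowest at 46.2 in replicate 2 and 48.0 in replicate 1. The medians of complexes I and II were close, with no overlap between the mice, and in the read-based table their medians were 148 ± 2.08 for complex I and 107 ± 0.63 for complex II.

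Complex III, the cytochrome bc1 complex, had 9 nuclear subunits with a median of 154 in replicate 2 and 160 in replicate 1, 0.56 ± 0.03 above the nuclear median. The proteins that carry electrons were the lowest of the 9. The Rieske iron-sulphur protein Uqcrfs1 was at 61.9 in replicate 2 and 62.6 in replicate 1, and cytochrome c1, encoded by Cyc1, at 81.4 and 86.6. The 7 others had a median of 159 and 168. They ran from Uqcrb, with a mean of 96.8 ± 1.54, to the small subunit Uqcr11 (chromosome 10, 80402997 to 80406830), at 181 in replicate 2 and 204 in replicate 1. In the read-based table Uqcrfs1 was also the lowest of the 9, at 89.9 and 89.6, but Cyc1, at 205 and 207, stood above Uqcrb, at 162 and 157.

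Complex IV, cytochrome c oxidase, had the highest median of the nuclear sets when its tissue isoforms were kept apart. Its 11 constitutive nuclear subunits, counting Ndufa4, once assigned to complex I, had a median of 248 in replicate 2 and 276 in replicate 1. This was 1.30 ± 0.04 above the nuclear median on the log2(TPM + 1) scale, 2.45-fold, and the read-based medians of 450 and 475 were also the highest of the complexes. With all members placed by symbol, complex IV stood 0.60 above the nuclear median, below 0.64 for complex III and 0.61 for complex V. That placing counts the tissue isoforms and Cox7a2l in complex IV and moves Ndufa4 to complex I. The share of each change in this shift was not tested. Cox4i1, a regulatory subunit that binds adenine nucleotides (chromosome 8, 120668222 to 120674207), led at 472 in replicate 2 and 499 in replicate 1. Cox8a, a small structural subunit, followed at 437 and 499, and the 2 genes did not differ beyond their spread. Cox6a1, Ndufa4, Cox6b1, Cox6c and Cox5b averaged between 258 and 312. In the read-based table Cox8a led, at 830 in replicate 2 and 983 in replicate 1. Cox4i1 was at 795 and 829 there, so the first place in the complex depends on the method.

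The lowest subunit of the complex was Cox7c, with 143 in replicate 2 and 159 in replicate 1. Its processed copies, chiefly Gm12338 on chromosome 11, held 40.1% of the summed count in replicate 2. With copies Cox7c came to 239 and 269, and Cox7b became the lowest, at 147 in replicate 2 and 162 in replicate 1. In the read-based table Cox7c was at 509 and 539 in the same mice and Cox5a, at 256 and 311, was the lowest, so this rank depends on the method.

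Tissue isoforms of complex IV were low, and 3 of the 7 reached a TPM of 1 in both mice. Cox4i1 was 8.00 ± 0.09 higher than Cox4i2, a form known from lung, on the log2(TPM + 1) scale, 255-fold, with Cox4i2 at counts of 9 in replicate 2 and 13 in replicate 1. Cox6a1 was higher than the heart and muscle form Cox6a2 by 6.06 ± 0.10, and Cox7a2 than the muscle form Cox7a1 by 5.39 ± 0.01. Cox6a2 was the highest of the 7 isoforms, at a TPM of 3.28 in replicate 2 and 4.11 in replicate 1. The 5 marker genes of muscle had a summed TPM of 18.2 in replicate 2 and 17.3 in replicate 1. Their part in these values was not tested.

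The forms known from testis were also low. Cox6b1 was higher than Cox6b2 by 6.42 ± 0.15 and Cox7b than Cox7b2 by 7.07 ± 0.20, with Cox7b2 at counts of 0 in replicate 2 and 3 in replicate 1. Cox8c had a count of 0 in both mice, which allows up to 3 counts per library. Cox8b, of muscle and brown fat, had 2 counts in each mouse, and Cox8a exceeded it by 8.38 ± 0.16. For genes this low the difference depends on the pseudocount, and intervals on counts cover counting error only. Ndufa4 exceeded its hypoxia-induced paralogue Ndufa4l2 by 7.02 ± 0.31, with Ndufa4l2 at 14 counts in replicate 2 and 32 in replicate 1.

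**Figure D3:**
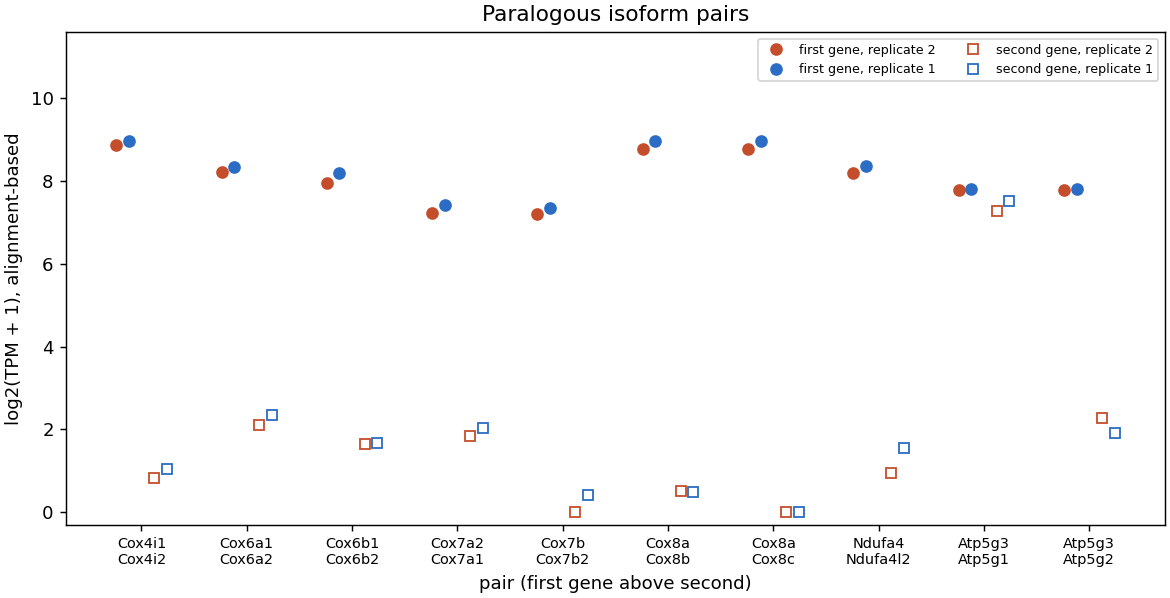
Level of 10 pairs of paralogous genes as log2(TPM + 1) (vertical axis), with the first gene of each pair (filled circles) left of the second (open squares) and replicate 2 left of replicate 1. In the 8 pairs of complex IV subunits the first gene lies above 7 and the second below 3, while Atp5g1 lies next to Atp5g3.

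Complex V, the ATP synthase, had 16 nuclear subunits with a median of 149 in replicate 2 and 167 in replicate 1. It stood 0.56 ± 0.04 above the nuclear median, as did complex III, and the medians of these 2 complexes did not differ beyond their spread between mice. The catalytic F1 part held both the highest nuclear subunit of all and moderate ones. Atp5b, the beta subunit that makes ATP (chromosome 10, 128083273 to 128090391), was at 684 in replicate 2 and 757 in replicate 1. Atp5a1, the alpha subunit, was at 297 and 311 in the same mice, below the beta subunit in both, although the enzyme holds as many alpha as beta subunits.

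The subunits of the central stalk were lower again. Atp5d averaged 154 ± 9.40, Atp5e 129 ± 8.61, and the gamma subunit Atp5c1, which turns inside the F1 head, 111 ± 2.68. The 4 peripheral stalk genes, which hold the head still, had a median of 167 in replicate 2 and 174 in replicate 1, from Atp5f1 at a mean of 116 to Atp5h at 191. The 4 small membrane subunits (Atp5k, Atp5j2, Atp5l and Atp5mpl) had a median of 118 and 127.

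The rotating c ring is built from 1 protein made by 3 genes, Atp5g1, Atp5g2 and Atp5g3, which differ in their import signals. Atp5g3 was at 221 in replicate 2 and 225 in replicate 1, and Atp5g1 at 154 and 184. Atp5g2, with counts of 43.5 in replicate 2 and 33.3 in replicate 1, was listed at a TPM of only 3.88 and 2.78. Its copy Gm10175 on chromosome 7, a transcribed processed pseudogene identical to it over 645 nucleotides, had counts of 1024 and 1052. The last 90 coding bases of each gene (GENCODE transcripts) show a copy that is the same as Atp5g2 and 2 paralogues that are not, with bases that differ from Atp5g2 in capitals.
Atp5g2: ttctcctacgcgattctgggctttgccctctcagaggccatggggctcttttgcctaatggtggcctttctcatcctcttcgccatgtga
Gm10175: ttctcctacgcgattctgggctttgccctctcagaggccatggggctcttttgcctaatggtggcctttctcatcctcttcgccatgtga
Atp5g1: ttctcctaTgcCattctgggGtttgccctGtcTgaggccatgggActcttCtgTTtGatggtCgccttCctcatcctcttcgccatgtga
Atp5g3: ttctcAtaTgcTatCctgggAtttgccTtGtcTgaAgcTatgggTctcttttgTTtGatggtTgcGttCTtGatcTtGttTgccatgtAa

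Atp5g1 differs from Atp5g2 at 12 of these 90 bases and Atp5g3 at 23, and Gm10175 at 0. Over the last 225 coding bases before the stop, Atp5g1 and Atp5g2 were 84.9% identical and Atp5g2 and Atp5g3 78.7%. With its copy, Atp5g2 came to a TPM of 95.2 in replicate 2 and 90.6 in replicate 1. Atp5g3 then exceeded it 2.39-fold, against 52.2-fold from its own row, on the log2(TPM + 1) scale. The read-based table, which gave the copy a count of 0, put Atp5g2 at 163 in replicate 2 and 159 in replicate 1.

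Near-identical copies reached further than these examples. Copies with at least 95% identity were found for 33 members, 58 in all, of which 38 had under 10 counts in both mice. They held over 5% of the summed count in both mice for 14 members, 4 mitochondrial and 10 nuclear. Besides those named, Ndufs5 had 23.9% of its summed count under copies in replicate 2 and 24.7% in replicate 1, and Atp5l 23.5% and 20.6%. The TPM lay outside the authors' deposited interval in either mouse for 15 of the 94 expressed members, against 6.17% of expressed protein-coding genes. That share was not matched to the members in level. Among the members were mt-Co2 and mt-Co3, with copies, which lay below their intervals in both mice. Others were mt-Nd1, mt-Cytb and Cox4i1, with no counts under copies, which lay slightly above theirs in both. In replicate 2, mt-Co3 was at 1255 against a lower bound of 2135, and mt-Nd1 at 3295 against an upper bound of 3205. The TPM of mt-Atp6 lay inside its interval. Any link between copies and these intervals was not tested. With copies added, the complex medians relative to all nuclear subunits were -0.32 ± 0.07 for complex I, -0.44 ± 0.10 for II, 0.52 ± 0.01 for III, 1.27 ± 0.09 for IV and 0.60 ± 0.05 for V, the same order as from the gene rows alone.

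Assembly factors, which build the complexes and are not part of them, were present throughout at lower levels. All 45 examined were expressed, with a median TPM of 15.4 in replicate 2 and 14.9 in replicate 1, near the 16.5 and 15.6 of expressed genes and below the subunits. The highest was the complex III factor Uqcc2, at 101.4 and 103.2, and the lowest the complex I iron-sulphur carrier Nubpl, at 2.20 and 2.60. All 9 regulators of the pathway were expressed with a median of 21.95 in replicate 2 and 17.53 in replicate 1, among them the coactivator gene Ppargc1a at 24.6 and 22.4 and the mitochondrial DNA-packaging factor Tfam at 14.5 and 17.5. The 5 proteins that work beside the complexes had a median of 59.8 in replicate 2 and 66.0 in replicate 1, below the nuclear subunit median. The highest, the ATP synthase inhibitor Atpif1, was at 202 in replicate 2 and 223 in replicate 1, above that median. The lowest, Cycs, was at 17.3 and 20.3, but at a mean of 215 in the read-based table. The associated members Cox7a2l, which joins complexes III and IV, and Atp5s averaged 72.2 ± 2.78 and 15.1 ± 0.25.

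The nuclear members are spread over 19 chromosomes, and their promoters were searched for what they share. RefSeq promoters (GRCm38.p6, 250 bases before to 50 after the start) were matched for 69 of the 87. The NRF1 motif (GCGC, any 2 bases, GCGC) was present in 19 of 69 (27.5%), against 6.997% of 27025 genes. The GABP motif CCGGAAGT was in 5 (7.25%, against 4.31%), the ERR motif CAAGGTCA in 4 (5.80%, against 1.76%) and the YY1 motif, spelled in capitals in the Atp5j line, in 5 (7.25%, against 0.995%), on either strand. NRF1, GABP and the ERR receptors are known regulators of respiratory genes. At least 1 of the 4 motifs was in 28 of 69 promoters (40.6%), against 13.1% of genes. The 27025 genes were all those with a RefSeq promoter, and were not matched to the members in expression or base content. A match describes letters and is not a binding site. The stretches below show 1 or 2 promoters for each motif (capitals, the reverse letters where they lie on the other strand), read along the gene, with Sdha holding 2 NRF1 matches. They lie at chr5:115349041-115349100 (Cox6a1), chr13:74350241-74350300 (Sdha), chr10:80406853-80406912 (Uqcr11), chr2:73911344-73911403 (Atp5g3) and chr16:84835030-84835089 (Atp5j), all on the minus strand.
Cox6a1 (NRF1): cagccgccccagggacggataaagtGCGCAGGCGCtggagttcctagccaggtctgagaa
Sdha (NRF1): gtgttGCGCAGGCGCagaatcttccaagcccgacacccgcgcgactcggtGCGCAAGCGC
Uqcr11 (GABP): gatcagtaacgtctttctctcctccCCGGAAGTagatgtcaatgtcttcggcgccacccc
Atp5g3 (ERR): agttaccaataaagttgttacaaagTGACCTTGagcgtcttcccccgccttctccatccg
Atp5j (YY1): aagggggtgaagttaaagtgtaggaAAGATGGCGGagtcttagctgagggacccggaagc

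A gene's TPM need not rest on transcripts that encode the subunit. Among the 72 expressed members with more than 1 transcript, a median of 93.4% of TPM stood on protein-coding transcripts, averaged over the mice. Of these, 20 had under 75%. For Ndufa3 the share had a mean of 5.08% ± 0.11 (SD, n = 2), and a transcript annotated for nonsense-mediated decay, Ndufa3-204, held 93.8% in replicate 2 and 94.2% in replicate 1. In the read-based table the coding share of Ndufa3 was 29.7% and 25.6%, and a retained-intron transcript, Ndufa3-205, led. For Atp5j a retained-intron transcript held 80.6% and 82.6%, and the coding share was 11.9% and 12.1%. The read-based table gave Atp5j a coding share of 88.8% in replicate 2 and 92.7% in replicate 1. In the other direction, Cox6a1 had a coding share of 8.09% and 13.8% in the read-based table, against 98.4% and 98.3% in the alignment-based table. Of 72 members with more than 1 transcript, 45 had the same leading transcript in both tables. For Atp5j and Cox6a1 the difference between tables was far larger than that between mice.

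**Figure D4:**
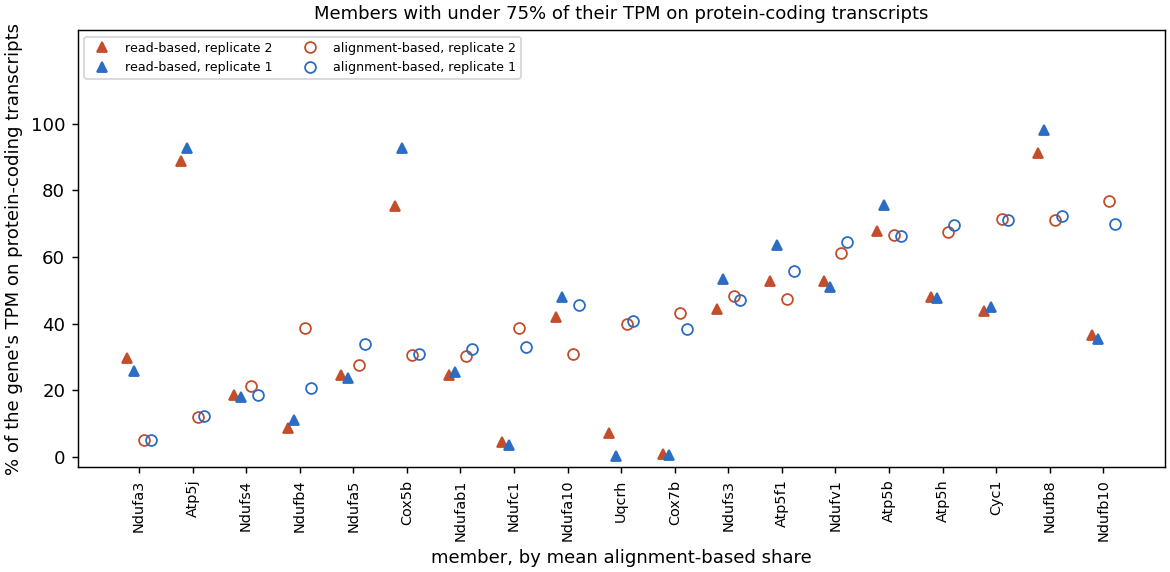
Percent of a gene's TPM on protein-coding transcripts (vertical axis) for 19 of the 20 expressed members with under 75% in the alignment-based table (horizontal axis), with read-based values (triangles) left of alignment-based values (open circles) and replicate 2 left of replicate 1. The mice lie close together for most genes, while the tables differ by over 50 percentage points for Atp5j.

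Gene levels also differed between tables. Members stood higher in the read-based table by 0.78 in the median (log2 of TPM + 1), against 0.61 for protein-coding genes averaging a TPM of 10 or more in either table. A difference over 2 in size was found for 5 of 91 members, against 0.858% of 9785 genes. They were mt-Co2 (3.06), Atp5g2 (5.23) and Ndufb4 (2.25), higher in the read-based table, and mt-Nd4l (-6.53) and mt-Atp8 (-11.00), lower in it. The first 3 are genes with near-identical copies that held counts, and the last 2 overlap their neighbours. A copy of mt-Nd4l, Gm10222, is identical over 294 nucleotides and had counts of 0 in both mice. The cause of these differences was not tested. The order of the 76 constitutive nuclear subunits was similar in both tables, with a Spearman correlation of 0.85 across genes.

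Between the mice, the nuclear subunits moved little and mostly together. Of 77 nuclear members with a mean count of at least 100, 70 were lower in replicate 2 after TMM scaling (a scaling of library sizes by a trimmed mean of ratios), which is 90.9%, against 57.0% of 11706 protein-coding genes. Members had a median ratio (log2, replicate 2 over replicate 1) of -0.14 with an SD of 0.09 across genes, against -0.03 with an SD of 0.20 for all genes. The members lay 0.11 below the median of all genes, a distance that scaling by library cannot change. With spike-in totals the median was 0.26 for nuclear members and 0.37 for all genes, so the direction between the mice depends on the scaling. The ratios ran from -0.33 for Ndufb3 to 0.10 for Ndufa1. All 11 nuclear subunits of complex IV were lower in replicate 2, with a median of -0.21, and all 9 of complex III, with a median of -0.10. In complex I 31 of 36 were lower, with a median of -0.09, and in complex V all 15 of sufficient count, with a median of -0.14. Markers of oligodendrocytes were lower in replicate 2 too, with a median log2 ratio of -0.38 over 4 genes and a summed TPM of 927 in replicate 2 and 1130.2 in replicate 1. Neuronal markers had a median of -0.06 over 6 genes. Their part in the difference was not tested.

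Past a 2-fold ratio were 2 of 90 members, mt-Co2 (-1.24, 95% exact binomial interval -1.34 to -1.14) and mt-Co3 (-1.13, interval -1.15 to -1.10), both lower in replicate 2. These intervals cover counting error only, and the deposited posterior SD of the mt-Co2 count, 2727 in replicate 2 and 3106 in replicate 1, was larger than the count in both. Over all genes of that depth 0.239% passed, 0.188% lower and 0.0513% higher in replicate 2. At a log2 ratio of 0.5 mt-Atp6 (-0.52) joined them, against 2.22% of genes, 1.06% lower and 1.16% higher in replicate 2. With copies the ratios were -0.35 for mt-Co2, -0.34 for mt-Co3 and -0.14 for mt-Atp6, and no member passed either limit. The read-based ratio was -0.30 for mt-Co2 and -0.04 for mt-Co3. The mitochondrial median was -0.11 with and without copies, close to the nuclear one, while its SD across genes was 0.16 with copies and 0.44 without. Of 44 assembly factors, 5 proteins beside the complexes and 9 regulators with enough counts, 0 passed the 2-fold ratio in either direction.

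**Figure D5:**
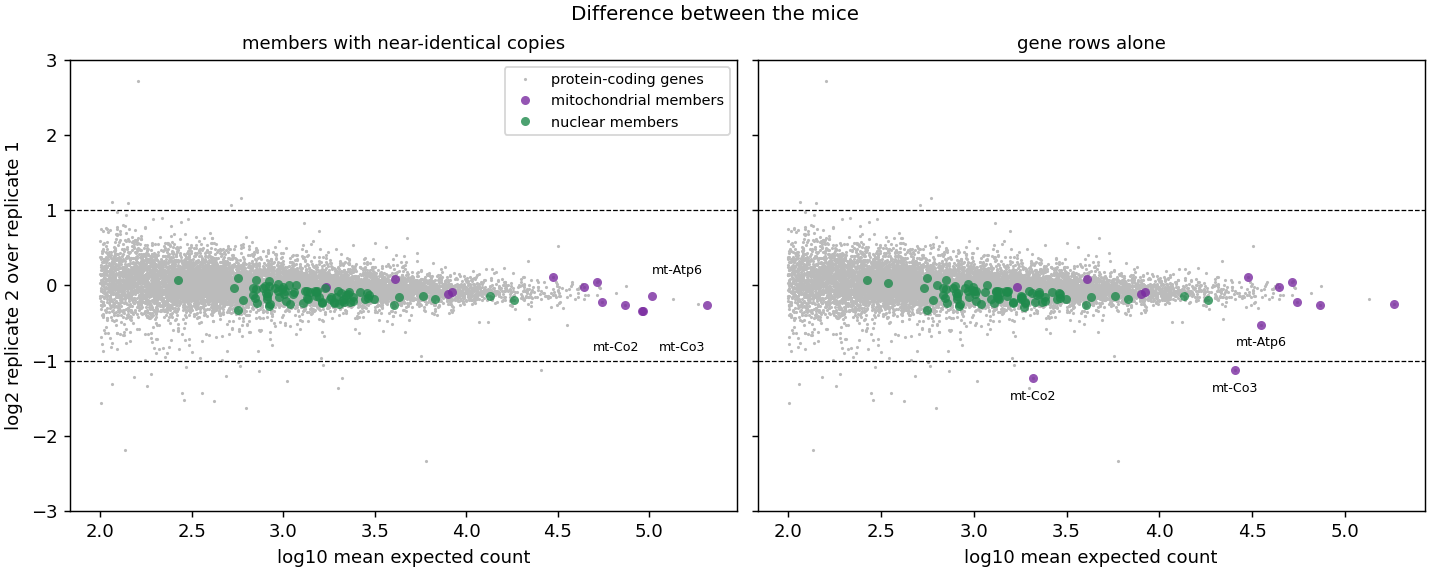
Log2 ratio of replicate 2 over replicate 1 (vertical axis) against the log10 mean expected count (horizontal axis) for protein-coding genes (grey), nuclear members (green) and mitochondrial members (purple), with copies added to the members (left) and from gene rows alone (right), and dashed lines at a 2-fold ratio. Of the members, mt-Co2 and mt-Co3 lie below the lower line in the right panel, and both lie above it in the left panel.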

How the data were processed

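Total RNA libraries of 2 mice were used as deposited. The authors' alignment-based tables hold, per the file headers, expected counts (estimated reads, not normalized), TPM summing over all rows, and isoform shares in percent of the gene. Their read-based table holds estimated counts and TPM per transcript, summed here per gene. The build is mm10 with GENCODE M21 genes, as the deposited listing names them. The aligner and quantifier were not given in the sources used here. Expected counts split shared reads, so genes with near-identical copies or overlaps are uncertain.

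Levels are deposited TPM or log2(TPM + 1). Ratios between mice used TMM-scaled expected counts (edgeR 4.0.16, R 4.3.3, prior count 0.5). Copies were found with BLAST 2.17.0 (identity of at least 95% over at least 100 nucleotides and 80% of the copy). A copy's counts were added to the member's at the member's effective length. Other steps used matplotlib 3.10.9, scipy 1.17.1, pandas 2.3.3 and numpy 2.4.6 in Python 3.11.15. Named were all mitochondrial members, the extremes of each complex, the core and F1 subunits (1 core subunit is not reported here), the paralogue pairs, and members with a ratio over 0.5 or a table difference over 2. The members and lists were chosen with earlier results of these data known. Alternatives covered thresholds, pseudocount, scaling (DESeq2 1.42.0 size factors included), tables, count minimums and left-out mice. Nothing says whether the libraries differ in batch, and the level of the deposited TPM intervals is not stated.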

Additional observations from a re-analysis of the deposited data

How the results depend on the processing

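No paired analysis was possible because both libraries belong to 1 group. Depth was ample for most members, and 90 of 100 had a mean count of at least 100. Of 68 alternatives that kept both mice, over 11 results, 48 changed a result by less than a set limit. For levels the limit was the spread between mice, and for a count it was 1.5 times. For ratios between mice it was the SD across genes, 0.09 for nuclear and 0.44 for mitochondrial members. The read-based table gave a mitochondrial minus nuclear difference of 3.76, levels of -0.45, -0.98, 0.44, 1.19 and 0.50 for complexes I to V relative to all nuclear subunits, 1 member past a 2-fold ratio (mt-Nd3, higher in replicate 2, against 0.317% of all genes), and a core minus accessory difference for complex I of -0.054, which reversed the direction. Placing all members by symbol, tissue isoforms included, gave 4.44 for mitochondrial minus nuclear, and 0.64, 0.60 and 0.61 for complexes III, IV and V. It also moved Ndufa4 to complex I and placed the associated genes in complexes. The lead of complex IV thus depends on which genes are placed in the complexes, and these changes were not separated. Adding copies, an alternative chosen after seeing the data, gave 4.39 for mitochondrial minus nuclear, 0.52 for complex III and 0 members past 2-fold. Adding copies of the mitochondrial genes alone gave 4.43. Spike-in totals reversed the ratios of replicate 2 over replicate 1, to 0.26 for nuclear and 0.29 for mitochondrial members, and gave 0 past 2-fold (against 0.564% of all genes), since they moved all genes. No minimum count gave 4 of 98 past 2-fold, against 10% of all genes, the added ones Ndufa4l2 and Cox7b2. For the read-based values the cause was not tested. With 1 mouse left out, members expressed ran from 94 to 96, the mitochondrial minus nuclear difference from 4.34 to 4.37, complexes I to V from -0.38 to -0.24, -0.49 to -0.31, 0.54 to 0.59, 1.27 to 1.32 and 0.53 to 0.60, and core minus accessory from 0.22 to 0.33.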
